A study of Mus musculus with 240 samples.

Results

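The 39 genes described here encode proteins that carry a cell through mitosis. They were taken by gene symbol from a deposited table of 34623 mouse genes, in which all 39 were found, and all 39 are protein-coding. By role it holds 2 chromosome and proliferation marks (Mki67, Top2a), 8 cyclins, kinases and transcription factors (Ccna2, Ccnb1, Ccnb2, Cdk1, Foxm1, Plk1, Aurka, Pbk), 4 members of the chromosomal passenger complex (Aurkb, Birc5, Cdca8, Incenp) and 9 kinetochore and checkpoint genes (Cenpa, Cenpe, Cenpf, Ndc80, Nuf2, Bub1, Bub1b, Ttk, Mad2l1). The others are 3 genes of anaphase and exit (Cdc20, Ube2c, Espl1), 9 spindle motors and assembly factors (Kif11, Kif2c, Kif4, Kif20a, Kif23, Tpx2, Nusap1, Hmmr, Ckap2l) and 4 genes of the midzone and cytokinesis (Prc1, Racgap1, Ect2, Anln).

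Mitosis is driven by cyclin-dependent kinase 1 bound to a B-type cyclin. Most of the genes are transcribed late in the cycle, in G2 and M, by the MuvB complex with B-MYB and FOXM1, which binds promoters at CHR elements, while NF-Y binds at CCAAT boxes. In quiescent cells, and after p53 acts through p21, the related DREAM complex keeps the same promoters off. Proteins of the list then condense and untangle chromosomes, attach them to the spindle, hold anaphase back until attachment is complete, and build the midzone at which the cell divides. Oligodendrocyte precursor cells (OPCs) are the main dividing cell of the adult brain outside its stem cell niches, so that some mitotic RNA can come from healthy tissue.

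RNA was measured in tdTomato-positive cells that were collected from mouse brain sections by laser-capture microdissection. Mice with the genotype given as Trp53-/- Nf1-/-, called CKO in the labels, were compared with wild-type (WT) mice. The 2 genes encode the tumour suppressor p53 and neurofibromin, a brake on RAS, and loss of the proteins was not measured here. Time is given in days from the start of tamoxifen treatment (dpi). There were 7 CKO and 5 WT mice at 12 dpi, 7 CKO and 5 WT mice at 90 dpi, and at 150 dpi 7 CKO mice with a tumour and 6 WT mice. Bulk RNA came from 10 µm sections and was amplified linearly with T7 polymerase. A second collection, from CKO mice only, comprised 112 libraries of 10 captured cells (10-cell) and 80 pool-and-split control libraries, at 12 and 90 dpi, from 8 µm sections and amplified by PCR. The driver of the recombinase, the reporter allele and the age of the mice are not given in the sources used here. By the genotype given, both the tumours and the CKO cells carry the 2 deletions, so that a comparison of tumours with CKO cells at 90 dpi is within 1 labelled genotype. No CKO group without a tumour was sampled at 150 dpi, so that comparison combines tumour and time. A comparison of tumours with WT cells at 150 dpi combines genotype and tumour.

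Depth and composition bear on every value. Bulk libraries held 0.0936 to 23.2 M (mega) counts, with group medians per library from 3.47 M (WT, 12 dpi) to 13.7 M (CKO, 12 dpi), and small libraries 1.64 to 6.49 M. Summed per animal, as in the tests, the median was 24.0 M in tumours and 4.19 M in WT animals at 150 dpi. A median of 0 of the 39 genes had no count in those tumours, and of 6.5 in those WT animals. The labelled deletion could be read only in part. Nf1 stood at 191 CPM (counts-per-million) in CKO and 312 CPM in WT animals at 12 dpi (means), while Trp53 was at 31.4 and 32.3 CPM. In tumours Nf1 was at 214 CPM and Trp53 at 44.3 CPM, against 301 and 26.0 CPM in WT animals at 150 dpi. By edgeR's test Trp53 was higher in tumours than in WT animals (log2 change 0.74, adjusted p 0.00967). It was also higher than in CKO animals at 90 dpi (0.70, adjusted p 0.00886). Reads outside the deleted part of either gene check nothing. The 8 OPC markers examined (Pdgfra, Cspg4, Olig1, Olig2, Sox10, Lhfpl3, Vcan, Gpr17) were present in every group, with a summed level between 1159 and 2305 CPM in the 30 animals without a tumour. In the same 30 animals, 8 neuron markers summed to 5693 to 13204 CPM, so the captured material was not pure OPC. A pair of animals stood apart. WT_21167, a WT mouse at 90 dpi, had 93644 counts in all, of which 14 fell on the 39 genes, and 29 of the genes had none. The 2 libraries of CKO_20647, a CKO mouse at 90 dpi, had 9.67 and 9.47 M counts, but the 39 genes summed to 342 CPM in one and 78.6 CPM in the other, and 1 and 21 of them were at 0.

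The promoters were searched for the elements named above, and a few are shown to set side by side those that hold both, 1 or neither. In RefSeq's table (GRCm38.p6, the build of the counts) 32 of the 39 genes were matched by symbol, and Ccna2, Incenp, Tpx2, Pbk, Kif20a, Aurkb and Foxm1 were not. Motifs were searched on both strands. The CHR element was taken as TTTGAA, with TTCGAA as its variant form. The CCAAT box was taken by its name alone. E2F-like sites were searched as TTCCCGC, as the related form TTCGCGC, as the form TTGCCGC and as the form TTGGCGC, which can share letters with a CCAAT box read on the other strand. Within 250 bases before the start, 25 of 32 members (78.1%) held a CCAAT box, against 33.8% of all 32851 promoters in the table, and 13 (40.6%) held a CHR element, against 17.1%. Both stood together in 12 members (37.5%) and in 6.02% of all promoters. When the first 50 bases after the start were included, 26 members (81.3%) held a CHR element, against 19.2% of all promoters, and 23 (71.9%) held both, against 7.52%. E2F-like sites were found in 5 members (15.6%, against 7.89%) in the shorter window. A match of letters is a description and not a bound site. The 200 bases before the start are printed 5′ to 3′ on the gene's strand, with the CHR and CCAAT letters in capitals on either strand (a CCAAT box then reads ATTGG, while a CHR element reads TTCAAA). They show genes with both elements (Top2a, Cdk1, Mki67, Cdc20, Kif11), genes with only a CCAAT box in this stretch (Ccnb1, Plk1) and Anln, which held neither in this stretch. The other members with neither element in the 250 bases before the start were Nuf2, Nusap1, Mad2l1, Birc5 and Ndc80, and in the 50 bases after it Anln held 2 CHR elements and Ndc80 held 1. Their positions on GRCm38.p6 are chr11:99024190-99024389 (minus strand) for Top2a, chr10:69352913-69353112 (minus strand) for Cdk1, chr7:135716380-135716579 (minus strand) for Mki67, chr4:118437344-118437543 (minus strand) for Cdc20, chr19:37376182-37376381 (plus strand) for Kif11, chr13:100786487-100786686 (minus strand) for Ccnb1, chr7:122159235-122159434 (plus strand) for Plk1 and chr9:22389207-22389406 (minus strand) for Anln.
Top2a: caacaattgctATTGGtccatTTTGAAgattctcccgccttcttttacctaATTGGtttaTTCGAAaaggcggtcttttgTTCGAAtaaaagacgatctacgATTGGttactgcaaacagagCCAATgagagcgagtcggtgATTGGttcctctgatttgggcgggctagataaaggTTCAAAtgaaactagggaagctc
Cdk1: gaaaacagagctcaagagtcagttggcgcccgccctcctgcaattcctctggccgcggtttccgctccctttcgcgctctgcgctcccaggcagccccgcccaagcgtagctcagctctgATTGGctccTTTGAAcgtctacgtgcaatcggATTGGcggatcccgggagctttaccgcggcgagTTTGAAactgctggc
Mki67: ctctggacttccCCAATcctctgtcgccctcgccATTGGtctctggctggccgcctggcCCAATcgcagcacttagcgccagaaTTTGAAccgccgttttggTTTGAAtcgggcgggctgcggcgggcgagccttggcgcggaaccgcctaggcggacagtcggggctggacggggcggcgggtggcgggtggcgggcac
Cdc20: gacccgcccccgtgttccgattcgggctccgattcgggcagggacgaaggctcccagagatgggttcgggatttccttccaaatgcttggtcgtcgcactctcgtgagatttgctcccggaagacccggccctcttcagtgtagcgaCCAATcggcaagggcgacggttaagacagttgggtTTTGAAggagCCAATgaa
Kif11: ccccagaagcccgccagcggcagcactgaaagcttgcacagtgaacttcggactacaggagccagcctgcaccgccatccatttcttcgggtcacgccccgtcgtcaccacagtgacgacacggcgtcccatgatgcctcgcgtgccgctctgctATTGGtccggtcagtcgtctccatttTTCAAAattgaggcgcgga
Ccnb1: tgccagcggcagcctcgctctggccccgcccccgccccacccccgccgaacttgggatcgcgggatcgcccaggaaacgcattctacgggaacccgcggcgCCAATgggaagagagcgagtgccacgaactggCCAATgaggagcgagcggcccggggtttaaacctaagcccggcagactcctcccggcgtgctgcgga
Plk1: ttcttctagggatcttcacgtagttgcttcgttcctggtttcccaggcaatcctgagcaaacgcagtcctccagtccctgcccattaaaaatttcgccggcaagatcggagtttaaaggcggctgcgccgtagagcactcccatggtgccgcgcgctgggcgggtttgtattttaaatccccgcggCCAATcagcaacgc
Anln: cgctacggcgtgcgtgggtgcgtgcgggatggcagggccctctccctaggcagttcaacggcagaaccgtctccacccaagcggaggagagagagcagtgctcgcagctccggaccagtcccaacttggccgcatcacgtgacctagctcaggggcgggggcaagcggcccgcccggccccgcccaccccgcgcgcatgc

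In tumours 37 of the 39 genes rose above WT cells at the same time after tamoxifen. The median change was 4.68 on the log2 scale, against 0.06 over all 16346 genes tested. Proliferation marks, cyclins, checkpoint kinases, the anaphase activator Cdc20 and the midzone organiser Prc1 rose together, while Incenp and Anln did not pass the test. The test was edgeR's quasi-likelihood test with Benjamini-Hochberg adjustment over all genes, and 24.3% of all genes tested were called higher in the same comparison. In 35 of the 39 genes the lowest tumour lay above the highest WT animal, which was the case for 6.73% of all genes, and the ranges of Nusap1, Mad2l1, Anln and Incenp overlapped. In bulk RNA a larger share of dividing cells and more RNA per dividing cell cannot be told apart.

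Against CKO cells at 90 dpi, which share the labelled genotype, 37 of the 39 genes also rose in tumours, with a median change of 4.22, against 0.12 for all genes. Of all genes tested 26.4% were called higher there. Every tumour lay above every CKO animal for 37 members, and for 6.77% of all genes. Incenp and Anln were again the 2 that did not pass, with log2 changes of -0.07 (SE 0.26) and 0.35 (SE 0.22). The tumours serve in both comparisons, so the 2 results are not independent. Tumours at 150 dpi and CKO cells at 90 dpi also differ in time, and tumour and time cannot be told apart there. The genotype effect, tumour or CKO minus WT, grew between 90 and 150 dpi for 37 of 39 members (median 4.23, edgeR's quasi-likelihood test of the interaction), and 14.2% of all genes were called higher in that test.

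**Figure D1:**
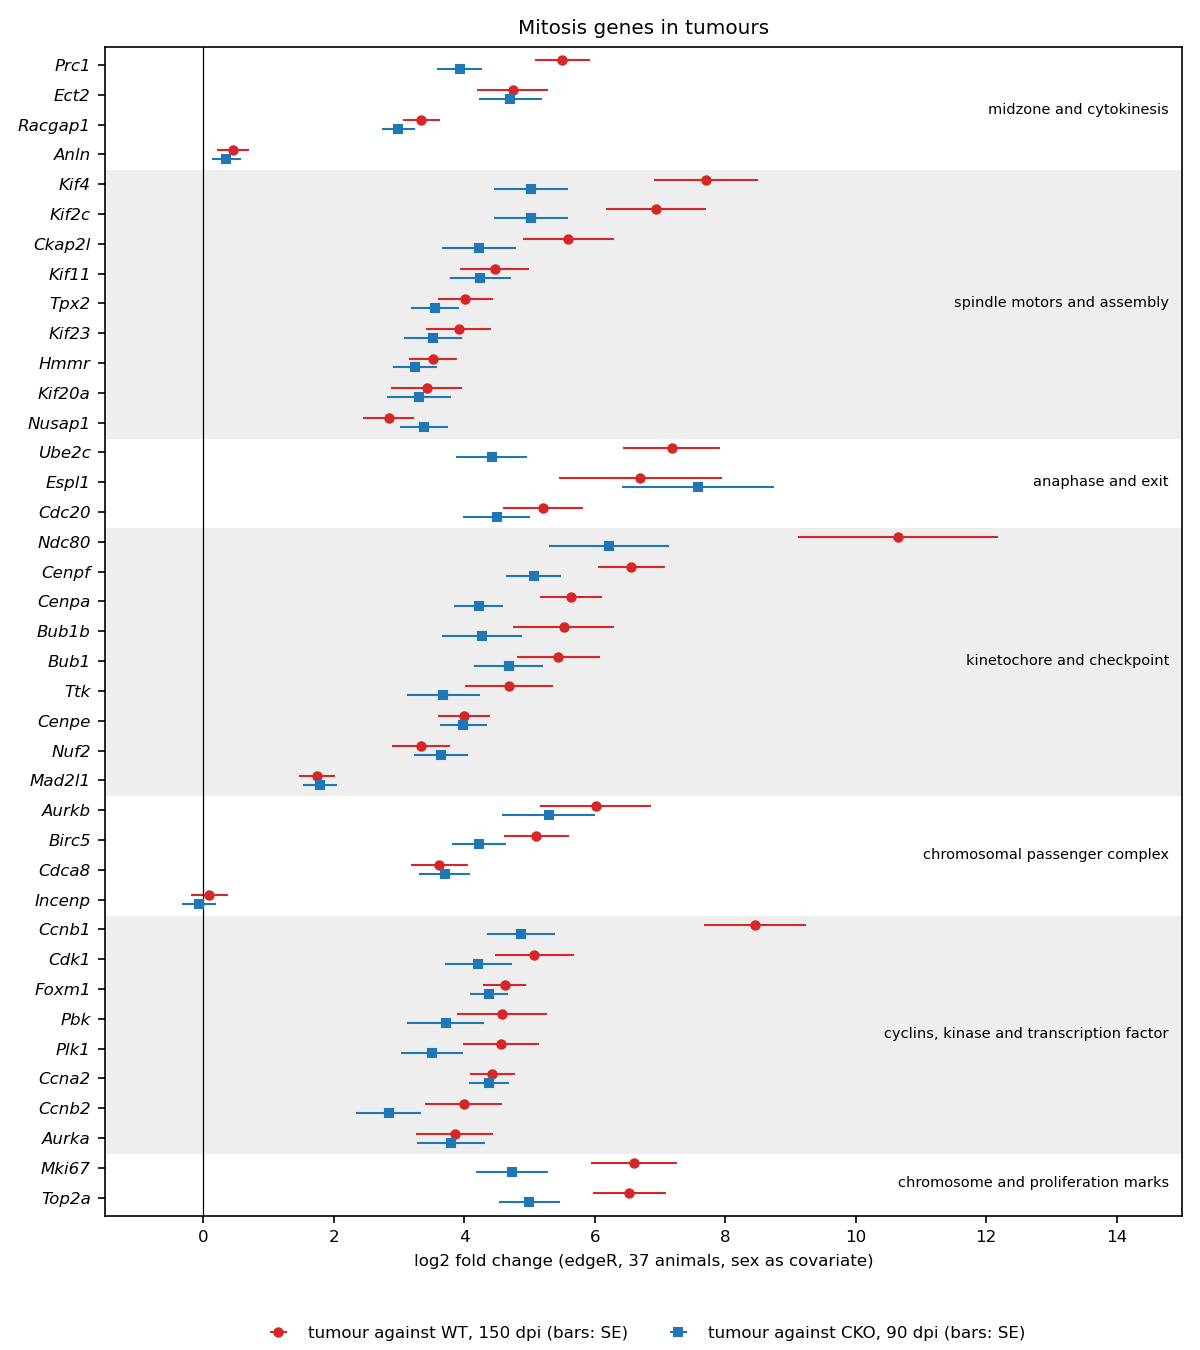
Log2 fold change (x axis) of each of the 39 genes (y axis, grouped by role) in tumours against WT cells at 150 dpi (red circles) and against CKO cells at 90 dpi (blue squares), with SE bars from the edgeR fit of 37 animals. All but Incenp and Anln lie to the right of 1.7, and the Ndc80 value against WT (10.64) rests on WT animals that were all at 0.

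Among the proliferation marks, Mki67, the Ki-67 protein that coats mitotic chromosomes, had a lowest, median and highest level of 174, 365 and 756 CPM in the 7 tumours, against 0.409, 4.38 and 12.6 CPM in the 6 WT animals at 150 dpi. Top2a, the topoisomerase that untangles sister chromatids, was at 129, 277 and 679 CPM in tumours and at 0.477, 4.2 and 7.28 CPM in WT animals. For both genes the lowest tumour was more than 10 times the highest WT animal. The log2 changes were 6.60 (SE 0.66, adjusted p 2.35e-10) and 6.53 (SE 0.56, adjusted p 4.24e-12) in edgeR's test. Both genes together made up 29.6% of the summed CPM of the 39 genes in tumours and 6.17% in WT animals at 150 dpi. Against CKO cells at 90 dpi, at 1.23, 17.6 and 26.1 CPM for Mki67, the changes were 4.73 (SE 0.54) and 5.00 (SE 0.46).

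All 8 cyclins, kinases and transcription factors rose. Foxm1, the transcription factor that drives many of the other genes, was at 25.2, 71.4 and 134 CPM in tumours, against 1.13, 2.48 and 4.72 CPM in WT animals, and had the smallest adjusted p of the list (log2 change 4.62 (SE 0.33, adjusted p 3.06e-14), edgeR). Cdk1, the kinase of mitotic entry, was at 10.1, 41.4 and 104 CPM against 0, 1.1 and 2.04 CPM. Tumours were far above WT animals for both, with no overlap. Ccnb1, cyclin B1, Cdk1's partner, was at 17.0, 51.6 and 119 CPM against 0, 0.129 and 0.58 CPM, a log2 change of 8.46 (SE 0.78), the largest of this role. Ccna2, cyclin A2, which acts in S phase and G2, kept a higher level in WT animals, at 2.67, 7.66 and 11.9 CPM, and reached 76.4, 162 and 266 CPM in tumours. Plk1, Polo-like kinase 1, was at 5.16, 20.2 and 47.8 CPM against 0.272, 0.908 and 2.04 CPM. Of the others, Ccnb2 (cyclin B2) changed by 3.99 (SE 0.59), Aurka (the spindle pole kinase Aurora A) by 3.85 (SE 0.59) and Pbk (a mitotic kinase) by 4.58 (SE 0.69). Scaled by exon length, Mki67, Ccna2 and Top2a had the highest tumour means of the list, at 43.8, 40.8 and 38.0 CPM per kilobase, and Ndc80 the lowest, at 2.10.

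The chromosomal passenger complex brings the kinase Aurora B to centromeres and later to the midzone. Its 4 subunits split, with 3 called higher and 1 not. Aurkb, the kinase, was at 12.7, 31.5 and 67.4 CPM in tumours against 0, 0.034 and 2.04 CPM in WT animals, and Birc5, survivin, at 18.7, 32.4 and 83.3 against 0, 1.11 and 2.03 CPM. Neither gene overlapped between the groups. Their changes were 6.01 (SE 0.85) and 5.10 (SE 0.50), and that of Cdca8, borealin, 3.62 (SE 0.43). Incenp, the scaffold that holds the complex together, was at 6.88, 18.6 and 40.4 CPM in tumours and 8.7, 17.1 and 31.2 CPM in WT animals. The WT animals lay within the range of the tumours, and the log2 change was 0.10 (SE 0.28, adjusted p 0.817) by edgeR's test. Its sign turned to -0.11 when the tumour Tumor_21349 was left out, to -0.03 without the WT animal WT_21591 and to -0.04 with only the deepest library of each animal. Incenp was also the only member whose highest group mean was not the tumours.

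Kinetochores join chromosomes to the spindle, and the checkpoint holds anaphase back until all are attached. All 9 genes of this role rose in tumours. Ndc80, a subunit of the outer kinetochore that grips microtubules, was at 5.81, 13.7 and 24.8 CPM in tumours and had no count in any of the 6 WT animals at 150 dpi. With a floor of 3 counts over the 6 WT animals together (0.0802 CPM), it was at least 169.8-fold higher. Its fitted change of 10.64 is no bound, since it depends on how zeros are handled. Nuf2, the partner of Ndc80, was at 14.8, 27.5 and 53.0 CPM against 0, 2.92 and 5.11 CPM, and so was present in WT animals where Ndc80 was not found. Cenpa, the histone H3 variant that marks centromeres, was at 12.7, 44.2 and 83.7 CPM in tumours and 0.334, 0.684 and 1.78 CPM in WT animals. Bub1b, the checkpoint protein BubR1, was at 4.73, 32.5 and 69.0 against 0, 0.651 and 2.00 CPM. Tumours and WT animals did not overlap for Nuf2, Cenpa or Bub1b. The changes of the kinases Bub1 and Ttk (Mps1) were 5.44 (SE 0.63) and 4.68 (SE 0.67), those of the large corona proteins Cenpe and Cenpf 3.99 (SE 0.39) and 6.56 (SE 0.52). Mad2l1, the checkpoint protein MAD2, rose least of the 37, by 1.74 (SE 0.28), from a WT level of 8.22, 12.5 and 23.8 CPM, with tumours at 18.7, 40.8 and 78.7 CPM and an overlap of the groups.

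All 3 genes of anaphase and exit rose. Cdc20, which switches on the anaphase-promoting complex, was at 6.67, 25.9 and 41.4 CPM in tumours against 0, 0.522 and 1.53 CPM in WT animals, a change of 5.21 (SE 0.61). Ube2c, the ubiquitin-conjugating enzyme of that complex, changed by 7.18 (SE 0.75), and Espl1, separase, by 6.70 (SE 1.25) against WT and 7.58 (SE 1.17) against CKO cells at 90 dpi, its largest change. The Ube2c change rests on 16 counts in WT_21593 alone, with 0 in the other WT animals. Espl1 was at 3.66, 25.2 and 33.9 CPM in tumours and at 0, 0 and 1.23 CPM in WT animals. Its fold against WT rests on 13 counts in WT_21593 alone, with 0 in the other WT animals. That against CKO cells rests on 17 counts in CKO_20642 alone, with 0 in the other CKO animals at 90 dpi.

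The 9 spindle motors and assembly factors all rose. Kif11, the motor Eg5 that pushes spindle poles apart, was at 18.3, 63.8 and 180.4 CPM in tumours and 0.668, 2.62 and 7.37 CPM in WT animals, a change of 4.46 (SE 0.53). The largest changes were those of the chromosome-bound motor Kif4 (7.71 (SE 0.80)) and the microtubule depolymerase Kif2c (6.94 (SE 0.77)). Both folds rest on few WT counts, at most 3 in any of these WT animals for either gene. Their WT means were 0.30 CPM for Kif4 and 0.10 CPM for Kif2c. The smallest was that of Nusap1, a microtubule bundler, at 15.3, 44.7 and 127 CPM in tumours and 2.00, 7.74 and 15.3 CPM in WT animals, where the groups touched. Tpx2, which activates Aurora A, changed by 4.02 (SE 0.42), and Hmmr, Ckap2l, Kif20a and Kif23 by 3.43 to 5.60.

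At the midzone 3 of 4 genes rose. Prc1, which bundles the microtubules of the midzone, was at 35.9, 74.9 and 114 CPM in tumours and 1.00, 1.51 and 2.61 CPM in WT animals, a change of 5.50 (SE 0.42) with no overlap. Racgap1 and Ect2, which switch on RhoA at the cell's equator, changed by 3.34 (SE 0.29) and 4.74 (SE 0.54). Anln, anillin, the scaffold of the contractile ring, was at 18.9, 37.3 and 66.8 CPM in tumours and 21.0, 28.4 and 40.0 CPM in WT animals, and the ranges overlapped. Its change of 0.46 (SE 0.24, adjusted p 0.123) did not pass edgeR's test, but did under DESeq2 (0.62, adjusted p 0.0310), with RLE size factors (0.62, adjusted p 0.0372) and without either the tumour Tumor_21256 or the tumour Tumor_21354. Anln and Incenp had the highest levels per kilobase of exon in WT animals at 150 dpi, at 3.23 and 4.21 CPM per kilobase. Genes of the midzone made up 29.0% of the summed CPM of the 39 genes in those WT animals and 9.88% in tumours.

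**Figure D2:**
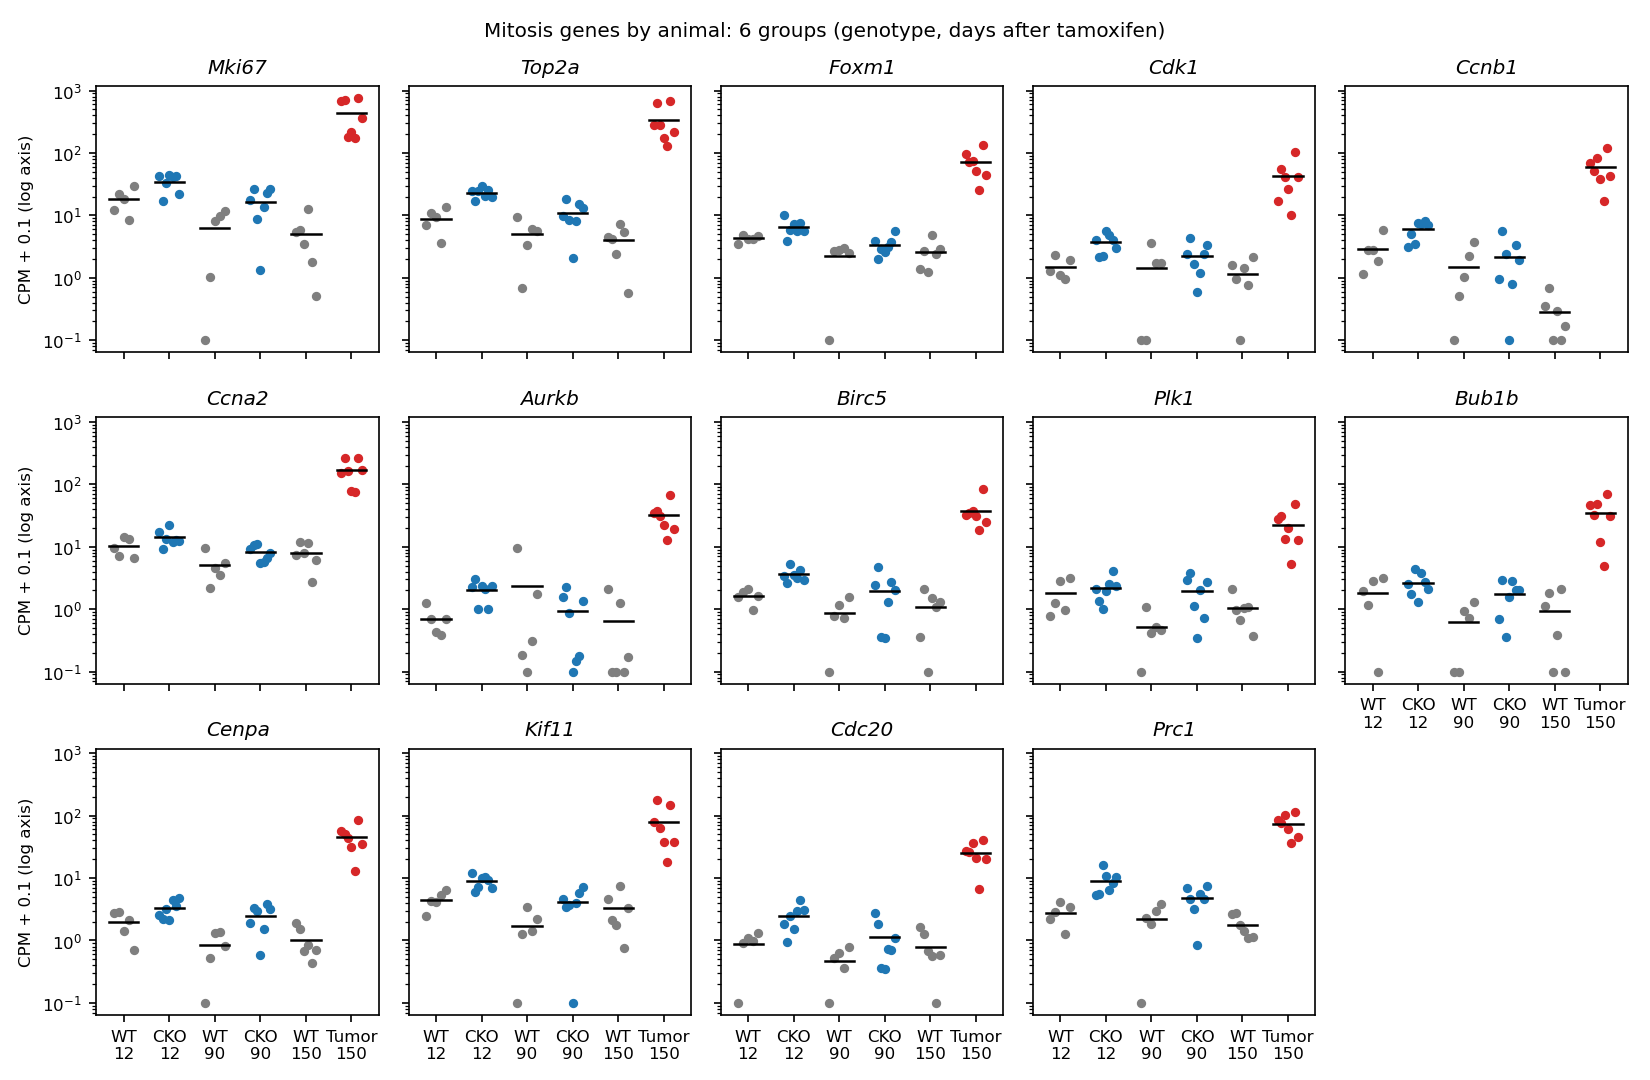
Level of 14 genes, picked by role, in each of the 37 animals, as CPM + 0.1 on a log axis. Points are animals, horizontal bars the group means (5 WT and 7 CKO at 12 and 90 dpi, 6 WT and 7 tumours at 150 dpi), and the 7 tumours lie above all other animals in each panel.

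Some counts can be shared with other genes. By exon sequence (at least 200 bases at 90% identity, GENCODE M21), 10 members have a near-identical copy on the same strand: Birc5, Ccnb1, Cdc20, Cenpe, Mad2l1, Mki67, Pbk, Plk1, Racgap1 and Ube2c. Gm7483, AC139157.1, AC151284.1 and AC148020.1, the last the only copy of Racgap1, were not found among the counted genes, so their level is not known. The counts assigned to the other copies were low, and highest for Gm8956, a copy of Ube2c, at 2.96 to 4.13 CPM as a group mean, with 3.54 CPM in WT animals at 150 dpi where Ube2c itself had 0.25 CPM. Plk-ps1, the copy of Plk1, had 0.81 CPM in WT and 1.13 CPM in CKO animals at 90 dpi, where Plk1 itself had 0.42 and 1.85 CPM. The copy of Ccnb1, Gm4870, had 1.69 CPM in tumours. Levels of the copies are scaled to each animal's total counts and those of the members by TMM, so the 2 scales differ somewhat. Another 4 members overlap a gene or a copy on the opposite strand: Ccna2 (Exosc9), Kif4 (Pdzd11), Prc1 (Rccd1) and Kif2c (Gm4961). Whether counting used the strand is not given in the sources used here, so the levels of these 4 genes carry that uncertainty, and those of the other 10 depend on how reads were divided between a gene and its copy.

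Other genes of the cell cycle were examined from lists drawn up by function. Of 45 further mitosis genes 42 rose in tumours against WT and 2 fell, with a median change of 3.46. Kif18b, a spindle motor, had the largest rise (6.76), and Cit, citron kinase, which acts in cytokinesis and has a brain isoform, the largest fall (-1.24). Of 20 replication genes 19 rose (median 2.37), led by Rrm2, a subunit of the enzyme that makes deoxynucleotides (6.47). Fen1, the flap endonuclease, did not pass, at 0.31. Of 15 genes of G1 and the start of the cycle 12 rose (median 2.26), led by Myc (4.85). Of 14 brakes of the cycle 7 rose and 4 fell (median 0.77), and ranged from Cdkn2a, which encodes p16 and p19ARF (7.26), to the antiproliferative gene Btg2 (-1.62). Against CKO cells at 90 dpi the counts were 41 higher and 3 lower of 45, 18 of 20, 13 of 15, and 7 higher and 3 lower of 14, with Cdkn1a, which encodes p21, lowest at -1.94. Of all genes tested 24.3% and 26.4% were called higher in these comparisons, and 21.9% and 22.6% lower.

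Markers of other cell types moved with the comparison of tumours and WT cells, in which 24.3% of all genes were called higher and 21.9% lower. Of 8 OPC markers 7 rose in tumours against WT (median 1.47), and their summed level was 2357, 4585 and 8913 CPM (lowest, median and highest) against 1182, 1796 and 2223 CPM. Of 8 neuron markers 7 fell (median -3.42), from a median sum of 8453 to 463 CPM, and of 8 oligodendrocyte markers 4 fell and 1 rose. Of 10 markers of microglia and macrophages 9 rose (median 2.32), from a median sum of 117 to 337 CPM. Of 8 astrocyte markers 4 rose and 2 fell, of 8 endothelial markers 1 rose and 2 fell, of 8 pericyte and fibroblast markers 4 rose and 3 fell, and of 5 T cell markers that could be tested 2 rose. Of the OPC, neuron, oligodendrocyte and microglia markers none was at 0 in a whole group. The part of these shifts in the rise of the mitosis genes was not tested.

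The tumours differed among themselves. Over the 37 genes that rose, Tumor_21349 was highest for 27, Tumor_16839 for 9 and Tumor_16840 for 1. Tumor_21256 was lowest for 33 and Tumor_16844 for 4. Relative to the median tumour, the median gene stood at 1.90 in Tumor_21349 and at 0.342 in Tumor_21256, and the 39 genes summed to 992 CPM in the lowest tumour and 4657 CPM in the highest. The highest level was 14.6 times the lowest for Bub1b and 3.00 times for Cdca8. The 37 genes varied together over tumours, with a median correlation of 0.85 over 666 pairs of genes, given as a description, since the 7 tumours share their libraries and scaling between all genes. With Mki67 the members correlated at 0.18 (Pbk) to 0.89 (Cenpf) with a median of 0.73, against a median of 0.0034 for all 10573 genes with a mean of at least 10 CPM in the tumours.

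Each tumour had 2 libraries, which gives a measure of error. The median difference over members between the 2 libraries of a tumour was 0.17 to 0.62 on the log2 scale, and between 2 tumours 0.28 to 2.33, with a median of 0.81 over 21 pairs. The first range covers all 39 members in single libraries scaled to their totals. The second covers the 37 that rose, in summed libraries on the TMM scale, so the ranges are not fully alike. Mki67 was at 888 and 727 CPM in the libraries of Tumor_21349 and at 166 and 164 CPM in those of Tumor_21256. In Tumor_16713 it was at 553 and 965 CPM. Tumor_21256 was thus lowest in the first and in the second libraries for Mki67, while the highest tumour was Tumor_21349 in the first and Tumor_16713 in the second. Over the 7 tumours the summed mitosis genes correlated with summed neuron markers at -0.71, with endothelial markers at -0.89, with OPC markers at -0.61, with astrocyte markers at -0.62, with oligodendrocyte markers at -0.49 and with microglia markers at -0.15. OPC markers summed to 8563 CPM in Tumor_21256, the lowest tumour, and to 2357 CPM in Tumor_21349, the highest, but to 8913 CPM in Tumor_16713, which was close to the median tumour (1.09). These values share libraries and depth and are given as a description.

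**Figure D3:**
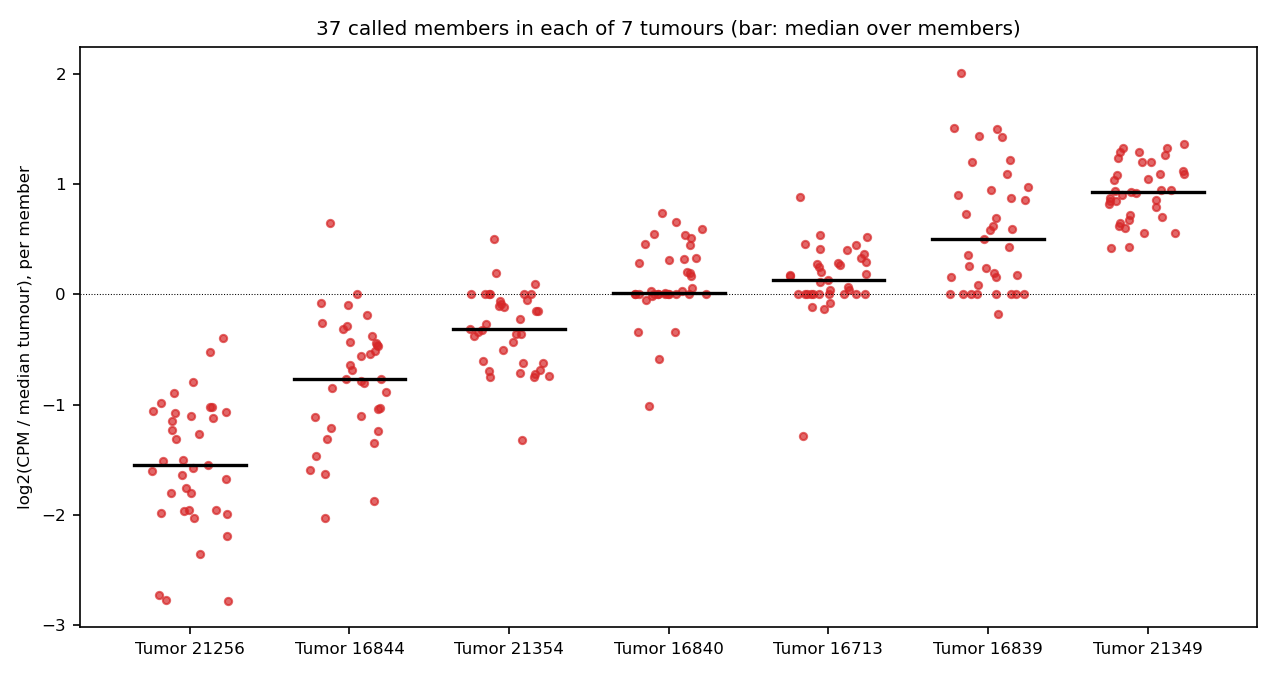
Level of each member relative to the median tumour, on a log2 axis, for the 37 genes that rose in tumours, in each of the 7 tumours. Points are genes and bars their median. Tumor_21256 lies lowest and Tumor_21349 highest, at medians of 0.342 and 1.90 times the median tumour.

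Before tumours 30 of the 39 members had every group mean under 10 CPM, and the highest mean was that of Mki67 (34.6 CPM, CKO at 12 dpi). No member passed edgeR's test in the fit of all 37 animals. For most members the CKO mean stood above the WT mean at both times, and the 90 dpi mean below the 12 dpi mean, with medians over members between 0.63 and 0.80 on the log2 scale. By group means, CKO cells at 12 dpi had the highest level outside tumours for 34 of 39 members, and CKO cells stood above WT cells for 36 members at 12 dpi and 30 at 90 dpi. The WT means at 90 dpi include WT_21167, in which a single count makes 9.48 CPM. At 90 dpi CKO cells stood above WT cells for 31 members by group medians and for 35 by the fitted change. The summed level of the 39 genes was 225, 314 and 349 CPM (lowest, median and highest) in CKO animals at 12 dpi and 146, 190.5 and 238 CPM in WT animals. At 90 dpi it was 100.5, 213 and 248 CPM in CKO and 122, 135 and 182 CPM in WT animals, and at 150 dpi 115, 142 and 177 CPM in WT animals. CKO and WT animals overlapped in this sum at both times. Tumours, at 992 CPM or more, lay above every other animal.

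At 12 dpi edgeR's test called 0 of 39 members between CKO and WT (0.0184% of all genes were called). An unadjusted p under 0.05 was found for 12 members (4.85% of all genes), and DESeq2 called 1 (0.0989% of all genes), Prc1 (1.74, adjusted p 0.0134). The median log2 change was 0.80, against 0.03 for all genes. Prc1 had the smallest adjusted p by edgeR, 0.182, at a change of 1.75 (SE 0.40). It was at 5.22, 8.08 and 16.2 CPM in the 7 CKO animals and at 1.16, 2.14, 2.8, 3.35 and 4.02 CPM in the 5 WT animals. Top2a was at 17.1, 24.9 and 29.6 CPM in CKO animals and at 3.48, 6.81, 9.37, 10.8 and 13.4 CPM in WT animals, a change of 1.48 (SE 0.48). In a fit of the 12 dpi groups alone Top2a passed (1.40, adjusted p 0.0335, edgeR), the only call among the 36 members tested. That fit called more genes of any kind, with 19 higher and 73 lower of all 14418 tested. Every CKO animal lay above every WT animal for Prc1, Top2a, Birc5 and Tpx2, which was the case for 0.722% of all genes. Birc5 was at 2.51, 3.25 and 5.23 CPM in CKO and at 0.87, 1.46, 1.52, 1.75 and 2.01 CPM in WT animals, and Tpx2 at 6.27, 8.92 and 11.9 and 1.65, 1.74, 2.34, 4.32 and 6.08 CPM.

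The other genes given in full overlapped between CKO and WT at 12 dpi. Mki67 was at 16.7, 41.1 and 44.2 CPM in CKO animals (lowest, median and highest, as below for CKO) and at 8.41, 12.1, 18.1, 21.7 and 29.2 CPM in the 5 WT animals, a change of 1.04 (SE 0.55). Foxm1 was at 3.76, 5.77 and 9.97 against 3.41, 4.02, 4.06, 4.56 and 4.79 CPM. For Mki67 3 of the 5 WT animals lay above the lowest CKO animal, and for Foxm1 4 did. Cdk1 stood at 2.09, 3.94 and 5.49 against 0.87, 1.00, 1.17, 1.82 and 2.22 CPM, and 1 WT animal lay above the lowest CKO animal. For Ccnb1 the values were 3.01, 6.96 and 7.91 against 1.07, 1.74, 2.68, 2.69 and 5.78 CPM, and for Ccna2 9.2, 12.8 and 22.5 against 6.39, 7.01, 9.44, 13.3 and 14.1 CPM. For cyclin B1 1 WT animal, and for cyclin A2 3, lay above the lowest CKO animal. Aurkb was at 0.893, 2.2 and 2.93 against 0.29, 0.335, 0.584, 0.608 and 1.17 CPM, Plk1 at 0.902, 1.97 and 4.04 against 0.681, 0.87, 1.17, 2.68 and 3.04 CPM and Bub1b at 1.2, 2.43 and 4.33 against 0, 1.05, 1.85, 2.68 and 3.04 CPM. For Aurkb 1 WT animal lay above the lowest CKO animal, and for Plk1 and Bub1b 3 did. Cenpa had 2.04, 3.07 and 4.74 against 0.608, 1.34, 2.03, 2.63 and 2.8 CPM, Kif11 5.85, 9.23 and 11.9 against 2.34, 4.02, 4.21, 5.22 and 6.39 CPM and Cdc20 0.836, 2.34 and 4.42 against 0, 0.818, 0.87, 1.00 and 1.22 CPM. At the median WT depth of 3.47 M at this time, 1 CPM before scaling is 3.47 counts, so these differences rest on small counts.

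At 90 dpi edgeR's test again called 0 of 39 members between CKO and WT (0.0489% of all genes). An unadjusted p under 0.05 was found for 14 members (5.2% of all genes), and DESeq2 called 0 (0.115% of all genes). The median change was 0.78, against 0.04 for all genes. It was 0.31 over the 21 members with a mean of at least 10 CPM over all 37 animals. That mean includes the tumours, and outside tumours 30 of the 39 members had every group mean under 10 CPM. Plk1 had the smallest adjusted p, 0.593, by edgeR. Mki67 was at 1.23, 17.6 and 26.1 CPM in CKO animals and at 0, 0.915, 8.16, 9.77 and 11.9 CPM in WT animals, and Top2a at 1.97, 9.82 and 18.5 and 0.582, 3.23, 5.59, 6.02 and 9.48 CPM. The lowest CKO animal for both genes was CKO_22149, at 4.22 M counts. The highest for Top2a was CKO_20647, whose libraries differed, with Top2a at 30.8 and 0.42 CPM and Mki67 at 44.2 and 0 CPM before scaling. Over the fits without 1 animal the median change over the members ranged from 0.44 (without CKO_20647) to 1.10. It was 0.47 without WT_22184 and 0.52 without CKO_22212. WT_21167, in which 1 count is worth 10.7 CPM before scaling, gave the 0 for Mki67 and the 9.48 CPM for Top2a. Plk1 was at 0.246, 1.91 and 3.67 and 0, 0.308, 0.363, 0.411 and 0.999 CPM, a change of 1.94 (SE 0.59), and Cenpa at 0.491, 2.82 and 3.68 and 0, 0.416, 0.725, 1.23 and 1.29 CPM. Without WT_21167 the mean of Mki67 in WT animals was 7.68 ± 4.75 CPM (SD, n = 4) and that of Top2a 3.86 ± 2.50 CPM (SD, n = 4).

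The remaining genes overlapped at 90 dpi in the same way. In CKO animals Foxm1 was at 1.9, 2.99 and 5.46 CPM, against 0, 2.43, 2.58, 2.69 and 2.93 CPM in WT animals. Cdk1 was at 0.491, 2.3 and 4.22 against 0, 0, 1.65, 1.66 and 3.46 CPM, Ccnb1 at 0, 1.8 and 5.5 against 0, 0.416, 0.924, 2.11 and 3.63 CPM and Ccna2 at 5.4, 7.73 and 11.0 against 2.08, 3.44, 4.39, 5.39 and 9.48 CPM. Ccna2 alone of these 4 was counted in every animal of both groups. For the kinase Aurora B and the checkpoint the values were lower, and Aurkb had 0, 0.768 and 2.14 against 0, 0.0832, 0.206, 1.66 and 9.48 CPM and Bub1b 0.256, 1.92 and 2.81 against 0, 0, 0.617, 0.847 and 1.19 CPM. Birc5 had 0.246, 1.96 and 4.59 against 0, 0.617, 0.666, 1.08 and 1.45 CPM. The CKO median of Birc5 lay above its highest WT animal. Kif11 was at 0, 3.87 and 7.19 against 0, 1.16, 1.34, 2.12 and 3.31 CPM, Cdc20 at 0.246, 0.637 and 2.69 against 0, 0.257, 0.416, 0.539 and 0.673 CPM and Prc1 at 0.737, 4.53 and 7.28 against 0, 1.77, 2.16, 2.83 and 3.78 CPM.

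Over time within CKO cells, 38 of 39 members had a lower fitted level at 90 than at 12 dpi, with a median change of -0.80, against 0.02 for all genes. EdgeR's test called 0 of 39 (0% of all genes), 21 members had an unadjusted p under 0.05 (4.23% of all genes) and DESeq2 called 0 (0.018% of all genes). Nuf2 had the smallest adjusted p, 0.970, at a change of -1.39 (SE 0.39). It was at 3.78, 5.44 and 13.2 CPM at 12 dpi and 0.491, 2.76 and 3.66 CPM at 90 dpi, the only member with every animal lower, as were 0.0428% of all genes. Mki67 changed by -1.09 (SE 0.48) and Top2a by -1.13 (SE 0.41), and both overlapped between the times.

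In WT cells the median change was -0.63 from 12 to 90 dpi. Over the fits without 1 animal it ranged from -0.80 to -0.37 (without WT_22281). Of the 39 members 30 were lower, and edgeR's test called 0 (0.00612% of all genes), with 6 at an unadjusted p under 0.05 (4.85% of all genes) and 0 by DESeq2 (0.0469% of all genes). Nuf2, at 2.1, 2.61, 3.5, 4.35 and 6.69 CPM at 12 dpi and 0, 0.582, 0.77, 1.29 and 2.01 CPM at 90 dpi, and Foxm1 were lower in every animal, as were 1.74% of all genes. The change of the genotype effect between 12 and 90 dpi was called for 0 of 39 members by edgeR and by DESeq2 (0% of all genes by edgeR and 0.0325% by DESeq2), with 1 at an unadjusted p under 0.05 (3.6% of all genes) and a median of -0.15, or -0.27 in a fit of these groups alone. A difference between the genotypes over this interval was therefore not shown for any member.

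From 90 to 150 dpi the median change in WT cells was -0.04, or -0.13 over the 24 members tested in a fit of these groups alone. EdgeR's test called 0 of 39 members (0.0184% of all genes), 5 had an unadjusted p under 0.05 (8.25% of all genes), and DESeq2 called 0 (0.101% of all genes). From 12 to 150 dpi the median was -0.59, with a range of -0.72 to -0.39 (without WT_22180) over the fits without 1 animal. It was -0.27 over the 17 members that passed the filter in a fit of these groups alone. Over the 21 with a mean of at least 10 CPM in all 37 animals, tumours included, it was -0.25. EdgeR's test called 0 (0% of all genes) with 8 at an unadjusted p under 0.05 (8.2% of all genes), and DESeq2 called 2 (0.114% of all genes), Ccnb1 (-4.02, adjusted p 0.00170) and Cenpf (-1.90, adjusted p 0.0494). Ccnb1 was at 1.07, 1.74, 2.68, 2.69 and 5.78 CPM in WT animals at 12 dpi and at 0, 0.129 and 0.58 CPM (lowest, median and highest) at 150 dpi, with every animal lower, as were 0.722% of all genes. All of these comparisons share groups with one another. All 39 members were tested in them because the filter on low counts was applied over all 37 animals, tumours included, and in fits of the compared groups alone 17 to 38 members passed it.

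**Figure D4:**
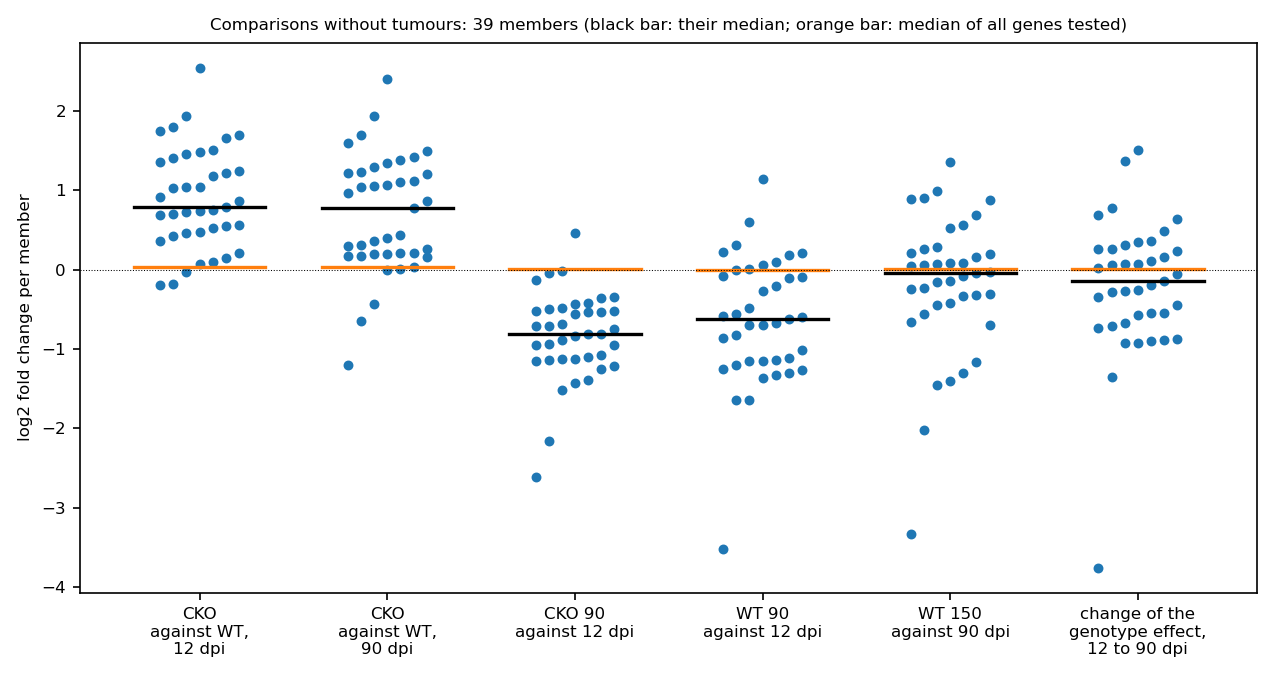
Log2 fold change (y axis) of each of the 39 members in 6 comparisons that hold no tumour (x axis). Points are genes, black bars their median and orange bars the median of all 16346 genes tested. The medians are 0.80 and 0.78 for CKO against WT, -0.80 and -0.63 for 90 against 12 dpi in CKO and WT, and -0.04 and -0.15 for the last 2 comparisons, and no member passed edgeR's test in the fit of all 37 animals.

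The other cell cycle lists and the marker lists gave 0 calls by edgeR and 0 by DESeq2 between CKO and WT at 12 dpi. At an unadjusted p under 0.05 edgeR counted 8 of the 45 further mitosis genes (median change 0.53), 0 of 20 replication genes (0.37), 0 of 15 genes of G1 and the start of the cycle (0.13) and 2 of 14 brakes (0.03), beside 12 of the 39 members (0.80). Within CKO cells from 12 to 90 dpi the lists again had 0 calls by either tool, with 12 of the 45 further mitosis genes at an unadjusted p under 0.05 (median -0.52), 0 of 20 replication genes (-0.25), 0 of 15 genes of G1 and start (-0.01) and 2 of 14 brakes (0.05). 

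Marker lists of cell types had 0 calls by edgeR and by DESeq2 in the comparisons without tumours, and their medians moved as follows. Between CKO and WT at 12 dpi the medians were 0.01 for OPC, 0.08 for neuron, -0.11 for oligodendrocyte, -0.06 for astrocyte, -0.16 for microglia, -0.22 for pericyte and 0.62 for T cell markers, and -0.44 for endothelial markers, all 8 of which were below 0. At 90 dpi they were 0.30, 0.19, 0.71, 0.12, 0.35, -0.79, -0.40 and, for endothelial markers, -0.58, in the same order. The oligodendrocyte, endothelial and pericyte markers thus shifted about as far at 90 dpi as the mitosis genes (0.78). Within CKO cells from 12 to 90 dpi the medians were 0.21 for OPC, 0.24 for neuron, -0.34 for oligodendrocyte, -0.05 for astrocyte, -0.13 for microglia, -0.33 for endothelial, -0.64 for pericyte and -1.12 for the 5 T cell markers tested. Within WT cells over the same interval oligodendrocyte markers stood at -0.94, with every marker at -0.60 or below, T cell markers at -0.66, microglia markers at -0.42 and astrocyte markers at -0.27, and the other lists between -0.14 and 0.08. From 12 to 150 dpi in WT cells oligodendrocyte markers stood at -0.79, microglia markers at -0.39 and astrocyte markers at -0.33. The part of these shifts in the values of the mitosis genes was not tested.

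In libraries of 10 cells the genes were seen in part. Over all small libraries 2128 of 7488 pairs of gene and library had a count (28.4%, 95% Clopper-Pearson interval 27.4 to 29.5, counting error only). With at least 5 counts this was 14.4%, and with every library thinned to the 1.64 M counts of the shallowest 22.7%. The median member was found in 17.2% of libraries, against 52.6% for the genes tested in bulk, 73.2% for OPC markers and 2.34% for T cell markers. All 39 were found in at least 2 libraries. Cenpa (160 libraries), Birc5 (144), Racgap1 (142) and Kif23 (135) were seen most, and Plk1 (7) and Ndc80 (2) least. The share of libraries with a count is not given as a share with a dividing cell, since no background share was measured.

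Mki67 and Top2a serve as the usual marks of cycling. Mki67 was found in 7 of 56 10-cell libraries at 12 dpi and 13 of 56 at 90 dpi, and in 13 of 40 and 5 of 40 pool-and-split libraries. Top2a was found in 17 and 28 10-cell and in 26 and 19 pool-and-split libraries. The order of the times was thus opposite in the 2 kinds of library for both genes. Where either of the pair was found in a 10-cell library at 12 dpi, a median of 9 of the other 37 members was found too, against 6 where neither was, and at 90 dpi 13 against 10. In pool-and-split libraries the same medians were 11 and 9 at 12 dpi and 11 and 10 at 90 dpi. The libraries compared were not matched for depth or for the number of all genes found, and the part of these in the medians was not tested.

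The number of members found per library is given beside the number of all genes found. In 10-cell libraries the lowest, median and highest were 0, 7 and 19 members at 12 dpi and 3, 13 and 29 at 90 dpi, with medians of 7496 and 10071 genes of any kind. In pool-and-split libraries they were 5, 12 and 19 at 12 dpi and 6, 11 and 19 at 90 dpi, with medians of 8651.5 and 8686 genes. After thinning to equal depth the medians were 5.5 and 10 in 10-cell and 10 and 9 in pool-and-split libraries. More genes of every kind were detected in 10-cell libraries at 90 dpi, and the part of this in the larger number of members was not tested.

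The 10-cell library with the most members came from the set female_2 at 90 dpi. It held 29 of the 39 members and 12000 genes in all at 3.82 M counts. Mki67 had 537 counts (141 CPM), Cdca8 94.5 CPM, Nuf2 75.9, Birc5 75.7, Top2a 58.1, Ckap2l 47.6, Hmmr 47.1 and Kif4 35.1 CPM, while Cdk1, Ccna2, Cdc20 and Foxm1 had no count. Its members summed to 673 CPM, and 10 of them were above 10 CPM. At 12 dpi 3 10-cell libraries shared the highest number, 19 members. A library from male_2 had the larger sum, 1235 CPM, with 10 members above 10 CPM at 4.56 M counts. It was led by Cdc20 (410 CPM), Ube2c (389 CPM), Cdk1 (122 CPM), Mki67 (67.5 CPM), Prc1 (59.4 CPM), Aurka (52.4 CPM), Cdca8 (39.2 CPM) and Foxm1 (33.7 CPM), while Top2a and Ccnb1 had no count. The 90 dpi library thus held the kinetochore gene Nuf2 and Top2a without Cdk1 and Cdc20, and this 12 dpi library the reverse. Another library from male_2 summed to 199.8 CPM, led by Racgap1 (84.4 CPM) and Incenp (50.6 CPM), and one from female_1 to 65.2 CPM, led by Cenpe (14.7 CPM), with 5 and 2 members above 10 CPM. Such libraries were picked for their number of members, so their levels are a description.

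**Figure D5:**
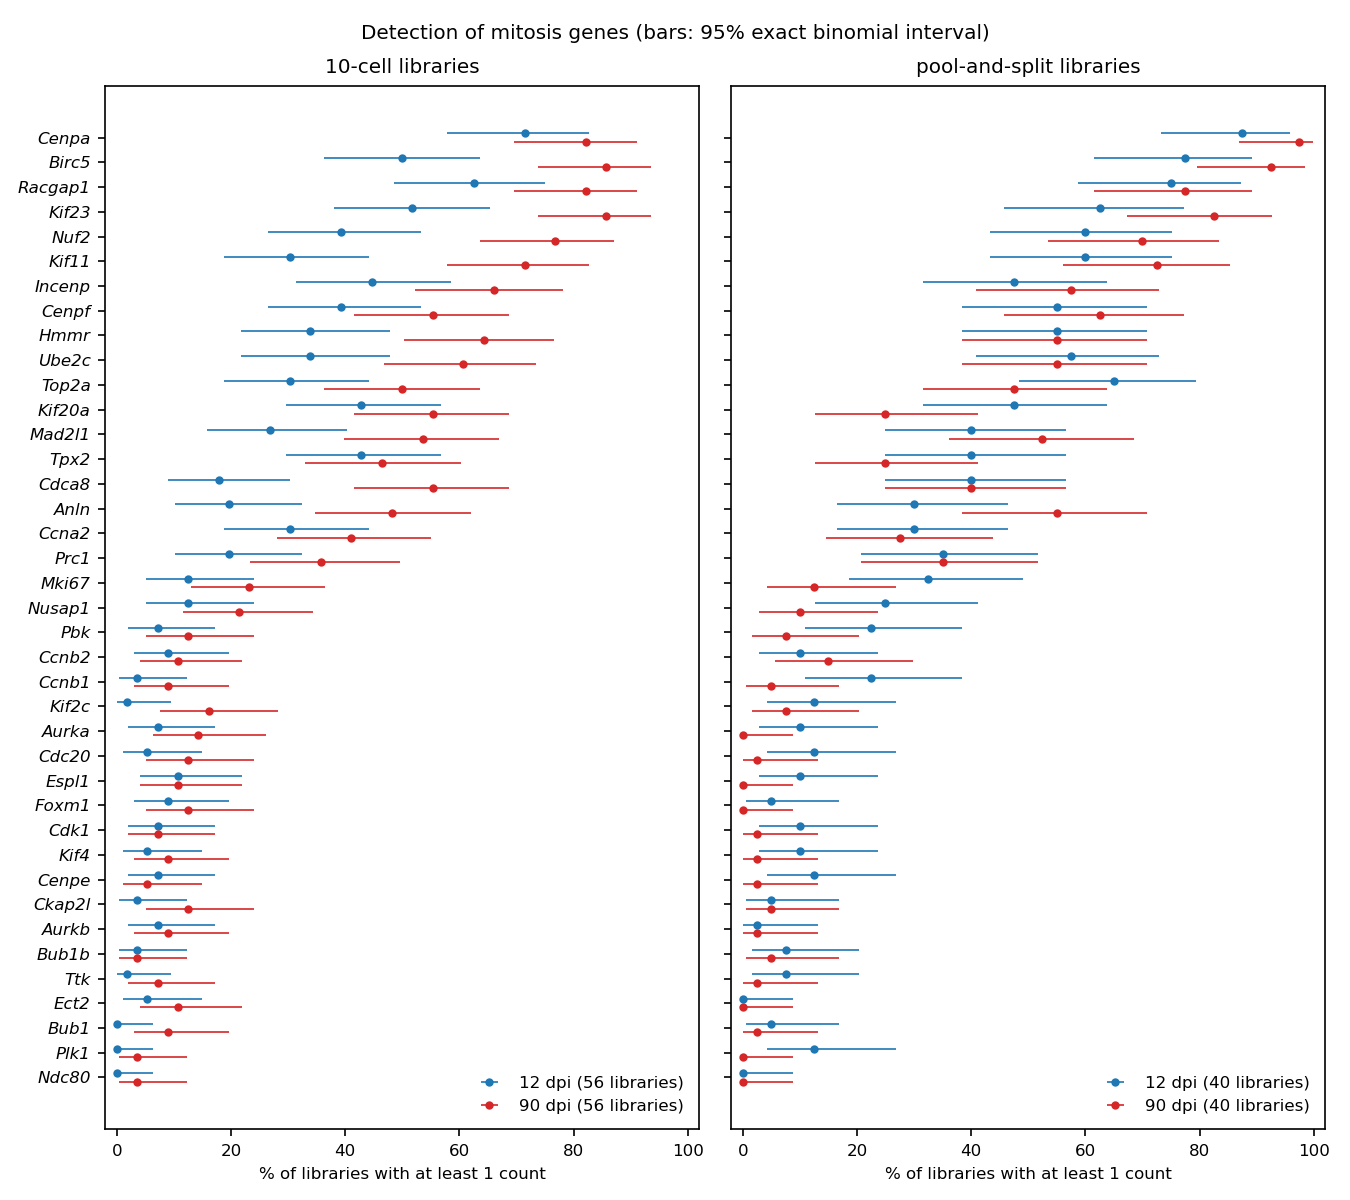
Share of libraries in percent (x axis) in which each of the 39 members (y axis) had at least 1 count, for 56 10-cell libraries and 40 pool-and-split libraries at 12 and at 90 dpi. Cenpa, Birc5 and Racgap1 are found in most libraries, and Plk1 and Ndc80 in the fewest, in 7 and 2 libraries.

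Changes over time were tested on counts summed within sets, 4 per time for each kind of library. A set holds the libraries of 1 time, sex and number at the end of the label, and neither the meaning of that number nor the animals behind a set are stated in the sources used here. In 10-cell sets edgeR's test called 0 of 30 members tested between 90 and 12 dpi (0% of all 14496 genes), with 3 at an unadjusted p under 0.05 (7.14% of all genes). DESeq2 called 2 of 36 members, Birc5 and Kif23, both higher, and 3.87% of all genes. In pool-and-split sets it called 0 of 23 (0% of all 13402 genes), with 0 at an unadjusted p under 0.05 (7.84% of all genes). DESeq2 called 4 of 33 members, Nuf2 higher and Plk1, Ccnb1 and Espl1 lower, and 5.84% of all genes. Mki67 changed by 4.05 (SE 5.57) in 10-cell and by -3.54 (SE 5.45) in pool-and-split sets, with errors too wide to tell a direction.

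Pool-and-split libraries serve as controls for technical spread, and the question was whether 10-cell libraries vary more. Spread was tested on log2(CPM + 1) with limma for members found in at least 20% of libraries. At 12 dpi 0 of 19 members had a larger spread in 10-cell libraries (4.32% of all 12467 genes), with 0 at an unadjusted p under 0.05 (15.7% of all genes). The reverse held for 2 members (2.13% of all genes), Top2a (-0.87, adjusted p 0.0150) and Kif23 (-0.65, adjusted p 0.0233), whose spread was larger in pool-and-split libraries. For Top2a the mean absolute deviation was 0.58 in 10-cell and 1.45 in pool-and-split libraries, beside mean levels of 0.39 and 1.28. At 90 dpi 2 of 18 members had a larger spread in 10-cell libraries (6.74% of all 13480 genes), and 4 at an unadjusted p under 0.05 (13.1%). The 2 were Kif20a, a motor of the midzone (0.93, adjusted p 0.00289), and Anln (0.56, adjusted p 0.0209). Their mean levels were also higher there, at 1.95 against 0.56 for Kif20a and 0.78 against 0.39 for Anln. All 4 calls were lost when deviations were taken from the median, at adjusted p of 0.0929 to 0.577, and those of Top2a, Kif23 and Anln were also lost at a pseudocount of 0.1. Those of Top2a (adjusted p 0.0915 and 0.209), Kif23 (0.0896 and 0.0921) and Anln (0.139 and 0.0823) were each lost when either of 2 single sets was left out: female_1 or male_2 for Top2a, and female_2 or male_2 for Kif23 and Anln.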

How the data were processed

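The deposited values are expected counts per gene, which the authors made with RSEM and Bowtie2 on GRCm38, per the submitters' processing notes, which give no version. They were rounded to whole numbers. The 48 bulk libraries belong to 37 animals, and the 11 animals with 2 libraries had these summed. Spike-ins were left out. Low genes were removed by filterByExpr (at least 10 counts in a library, 15 in total). All animals entered 1 edgeR 4.0.16 fit (R 4.3.3) with TMM scaling and sex as covariate, and a call is a quasi-likelihood p under 0.05 after Benjamini-Hochberg adjustment over every gene tested. CPM per animal are on the TMM scale, except those of the gene copies, which are on the animal's total. CPM of single libraries are on the library total. Small libraries were summed by set for tests over time, and limma 3.58.1 tested the spread. P-values over sets or libraries may be too small, since the animals behind them are not given. Intervals and floors cover counting error only. The tests were checked on simulated counts, with differences set only in genes well above a few counts. Genes at a few counts are not covered by that check. The members, the lists and the genes given in full (14 by role, and the largest and smallest change in tumours) were chosen with earlier results of these data known. Tpx2, Nuf2, Nusap1, Mad2l1 and Espl1 were also given values for their position in a comparison. Alternatives were DESeq2 1.42.0, RLE size factors, other filters, no sex covariate, a robust spread, the deepest library, the compared groups alone and leaving out each animal or set.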

Additional observations from a re-analysis of the deposited data

Results flagged for a closer look

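Of 107 combinations of a gene given in full and a bulk group, 6 had 1 animal far from the others by Dixon's criterion, which chance meets in about 1 of 20 groups. In WT animals at 90 dpi, Foxm1 was at 0 and Aurkb at 9.48 CPM in WT_21167, the animal with 93644 counts, where a single count after scaling makes 9.48 CPM. Ndc80 stood alone at 0.104 CPM in WT_22255 at 90 dpi and at 1.75 CPM in WT_22056 at 12 dpi, with 0 in the other animals of each group. Among tumours Tumor_21349 was far above the next for Birc5 (83.3 against 37.4 CPM) and for Incenp (40.4 against 20.5 CPM).

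The genotype effect differed between 90 and 150 dpi, where the CKO group is the tumours, for 37 of the 39 members by edgeR's test of the interaction. All 37 were called higher, as were 14.2% of all genes, and 4900 of all 16346 genes were called in either direction.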

How the results depend on the processing

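For the 37 members called in tumours against WT, in tumours against CKO cells and in the growth of the genotype effect after 90 dpi, a filter at a mean of 10 CPM left 21 members to test and called 19 in each, a drop that comes from the smaller number tested. Leaving out each animal gave 37 to 38, 37 to 37 and 35 to 37 calls, and 0 to 0 in the other bulk comparisons and in the sets. In the comparisons with 0 calls, DESeq2 called 1 member for CKO against WT at 12 dpi, 2 for WT at 150 against 12 dpi, 2 in 10-cell and 4 in pool-and-split sets. The groups at 12 dpi fitted alone called 1 of 36 members, beside 19 genes higher and 73 lower of all 14418. Taking each pool-and-split library as a sample called 1 (Cenpa), and the cause was not tested. With sex and number as a replicate block the sets gave 0 calls in both kinds of library; the numbers share only a label. For a larger spread in 10-cell libraries at 90 dpi, a detection minimum of 50% gave 1 member, median centring 0 and leaving out a set 1 to 3, and at 12 dpi 0 to 1. Detection was 14.4% with at least 5 counts and 22.7% after thinning.

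The log2 change of Incenp turned sign in tumours against WT with the deepest library of each animal (-0.039) and ranged from -0.11 to 0.35 over the fits without 1 animal. Against CKO cells at 90 dpi it turned under DESeq2 (0.089), RLE size factors (0.088) and a mean of 10 CPM (0.051), and ranged from -0.30 to 0.13 without 1 animal. RLE size factors moved the median of all genes from 0.06 to 0.22 against WT and from 0.12 to 0.29 against CKO cells. The share of calls that were higher went from 52.6% to 62.1% (62.5% by DESeq2) against WT, from 53.8% to 63.5% (64.4% by DESeq2) against CKO cells and from 47.2% to 57.3% (58.9%) in the change of the genotype effect. Of the other checks on single genes 1160 kept direction and side of the threshold, 13 lost a call and 8 gained one. Depth limits the values of a few counts, most of all in WT_21167.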

Other observations

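The 2 libraries of CKO_20647 differed over the mitosis genes by a median of 2.11 on the log2 scale, against 0.17 to 0.62 in the other 10 animals with 2 libraries, although their totals were 9.67 and 9.47 M counts. Of the 39 members 35 were higher in the first library and 3 in the second, and 20 had counts only in the first. The first library held 17853 genes and the second 13202. Summed markers were 1574 and 894 CPM for OPCs, 7394 and 15256 CPM for neurons, 251 and 13.8 CPM for microglia, and 3013 and 8958 CPM for astrocytes. Labels for both give the same animal.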
